A study of Mus musculus with 8 samples.

Results

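Connexins and pannexins are the channel proteins that join glial cells and neurons to one another or open them to the extracellular space. The 9 genes described here, of 24047 rows in the count table, were taken by symbol: Gja1, Gjb6 and Gjb2, Gjb1, Gjc1 and Gjc3, Gjd2, Panx1 and Panx2. RNA came from tdTomato-positive cells sorted from the mouse somatosensory cortex at postnatal days 23 to 25, in 4 libraries labelled WT and 4 labelled Ptch1cKO. WT mice carried Glast-CreERT2 and the Ai14 reporter, and Ptch1cKO mice carried the same alleles with both copies of Ptch1 floxed (Ptch1fl/fl). All mice of both groups received tamoxifen on postnatal days 12 to 14. Cre is driven by the Glast (Slc1a3) promoter and acts on the reporter and on Ptch1 separately, so a tdTomato-positive cell is one in which the reporter recombined, and loss of Ptch1 in the same cell is not read by the sort. Whether a library stands for 1 animal is not in the labels, and p-values therefore refer to the spread among these libraries, which may be technical.

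Connexins assemble in sixes into a hemichannel in the plasma membrane, and hemichannels of neighbouring cells dock to form a gap junction that passes ions and small metabolites. Cortical astrocytes are coupled into a network mainly by the products of Gja1 (Cx43) and Gjb6 (Cx30), and this network spreads potassium, glucose metabolites and calcium signals. Oligodendrocytes use other connexins, and neurons mostly use that of Gjd2 (Cx36) for electrical synapses. Pannexins form single-membrane channels, of which that of Panx1 releases ATP.

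Libraries held 4061274 to 7206462 counts. Ptch1, the targeted gene, lay at 227 to 491 CPM (counts scaled to the TMM-adjusted library size) in WT and 168 to 258 CPM in Ptch1cKO, and missed the threshold (log2 fold change -0.67, SE 0.22; BH-adjusted p = 0.349 in edgeR, where BH stands for Benjamini-Hochberg adjustment over all genes). WT replicates 2 and 3 had 1148 and 612 counts of the female transcript Xist and the other 6 libraries at most 4, so the libraries with this transcript are in WT alone. The astrocyte label was checked against 10 markers, whose summed level was 23875 to 33845 CPM in WT and 20536 to 38977 CPM in Ptch1cKO, with none of them at 0. Slc1a2 was the largest part of this sum, at 14310 to 22183 CPM in WT and 9327 to 24561 CPM in Ptch1cKO. None of the 10 passed by edgeR. Ndrg2 had groups that did not overlap (3410 to 4095 and 4395 to 6995 CPM), as had 5.02% of all genes tested. Oligodendrocyte markers were also abundant, at 13823 to 26792 and 17555 to 23281 CPM for 10 genes, and 8 neuronal markers summed to 3780 to 5211 and 3772 to 4867 CPM. Markers of endothelium summed to at most 8.23 CPM in any library.

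Gjb2 and Gjb6 are neighbours on chromosome 14 of mm10, both on the minus strand, at 57098600 to 57104702 and 57123303 to 57133611, with 18600 bases between them. Gja1 lies on chromosome 10 at 56377330 to 56402513, plus strand. The annotation (GENCODE M21) shows no exon of another gene over the exons of these 3 genes. Their promoter windows, 250 bases before to 50 after the annotated start (RefSeq, GRCm38), are shown because these are the members that astrocytes are known for and that had the largest positive fold changes of the 7 tested. Capitals mark the letters CCACCC or their reverse complement GGGTGG, the core of the site bound by Gli factors, the transcription factors at the end of the Hedgehog pathway.
Gja1 (chr10:56377050-56377349, plus strand): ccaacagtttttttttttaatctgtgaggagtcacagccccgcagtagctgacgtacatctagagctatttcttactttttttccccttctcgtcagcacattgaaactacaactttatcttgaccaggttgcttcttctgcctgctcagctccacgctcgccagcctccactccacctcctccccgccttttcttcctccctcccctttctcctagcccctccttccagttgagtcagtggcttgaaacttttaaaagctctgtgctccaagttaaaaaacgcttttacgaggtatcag
Gjb6 (chr14:57133562-57133861, minus strand): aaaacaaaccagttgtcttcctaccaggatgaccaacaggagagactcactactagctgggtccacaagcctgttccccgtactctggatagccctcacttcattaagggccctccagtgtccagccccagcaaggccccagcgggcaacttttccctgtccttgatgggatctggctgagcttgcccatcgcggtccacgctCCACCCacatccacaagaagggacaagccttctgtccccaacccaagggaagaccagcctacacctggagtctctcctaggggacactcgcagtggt
Gjb2 (chr14:57104653-57104952, minus strand): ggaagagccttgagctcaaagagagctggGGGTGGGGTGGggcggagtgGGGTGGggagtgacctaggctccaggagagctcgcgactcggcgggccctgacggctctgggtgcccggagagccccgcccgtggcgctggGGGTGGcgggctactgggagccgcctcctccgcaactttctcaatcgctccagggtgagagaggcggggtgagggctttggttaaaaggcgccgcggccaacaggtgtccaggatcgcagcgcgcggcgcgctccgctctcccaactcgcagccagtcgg
The window of Gjb2 held this core 4 times, with 2 of the 4 overlapping by 1 base, that of Gjb6 once and that of Gja1 not at all. The core is common: 31.5% of 32851 promoter windows of 300 bases held it on either strand. That share counts windows with any match, so it is no comparison for a window with 4. Of the other members with windows, Gjb1, at a log2 fold change of 0.18, held the core in most of its windows. Those of Gjc3, Gjd2 and Panx1 did not hold it. A relation between matches and fold changes was not tested. The longer Gli site GACCACCCA was in 0.253% of all windows and in none of the windows of these 3 genes, searched on both strands. The windows also differed in base composition, with 70.0% G and C for Gjb2, 57.3% for Gjb6 and 47.7% for Gja1, against a median of 52.7% over all windows. These matches describe letters and do not show binding.

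The coding sequences of Gjb6 and Gjb2 are the most alike among the 7 connexins, with 513 of 678 aligned bases identical (75.7%). Their longest identical run, at base 214 of either coding sequence, is shown as a measure of how alike the coding parts of the genes are, with capitals for the identical bases:
shared run: TCTCACATCCGGCTCTGGGC
The run is 20 bases long, and no pair of the 7 connexins shared a longer exact run in coding sequence. The sources used here do not say how the counting treated reads that match more than one gene.

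The levels of the members were compared per length, in the authors' deposited TPM (scaled for gene length and library size). Gja1 was highest, at a mean of 167 TPM over the 8 libraries (range 88.7 to 259), and Gjb6 was second at 112 TPM (61.4 to 207). Gja1 was above Gjb6 in 8 of 8 libraries. Together they made up 66.4 to 86.5% of the summed TPM of the 9 genes in a library. Panx2, a pannexin known from neurons and glia, followed at 39.0 TPM (28.7 to 47.8), and Gjc3 (Cx29), a connexin of the oligodendrocyte lineage, at 28.8 TPM (18.4 to 40.2). These levels overlapped, with Panx2 above Gjc3 in 6 of 8 libraries. After a gap came Gjb1 at 3.40 TPM, Gjb2 at 2.21, Gjc1 at 1.90 and Panx1 at 1.22, whose ranges all overlapped, and Gjd2 had the lowest mean at 0.203 TPM. The place of Gjb2 in this order was not the same in both groups, though with few counts: in WT its mean of 0.808 TPM was below those of Gjc1 (2.20) and Panx1 (0.907), and in Ptch1cKO its mean of 3.61 TPM was above theirs (1.60 and 1.53). Levels between genes depend on exome capture by probes as well as on abundance, so this order describes the captured libraries.

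**Figure D1:**
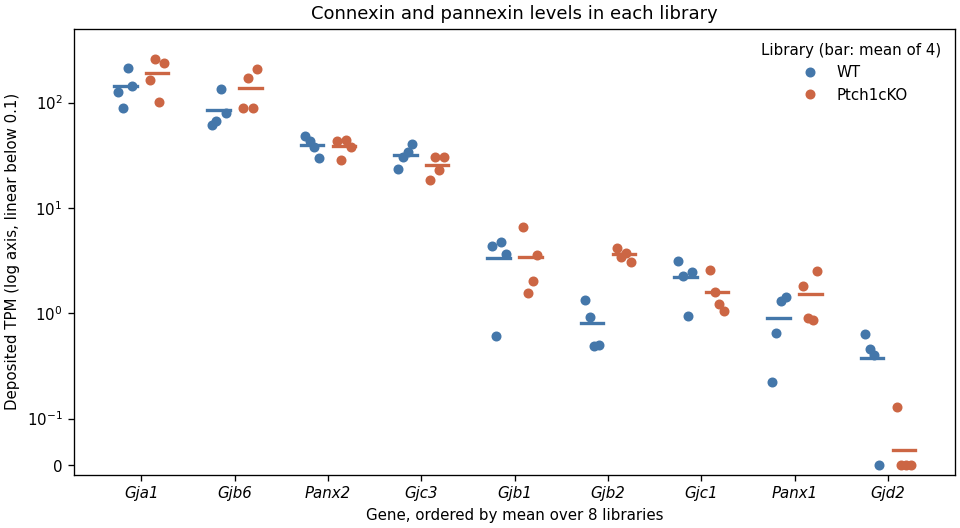
Deposited TPM of the 9 genes in each of the 8 libraries, on a log axis that is linear below 0.1, with genes ordered by their mean. Points are libraries and bars the mean of 4; Gja1 and Gjb6 are above 60 TPM in every library, and Gjb2 is the gene whose Ptch1cKO points all lie above its WT points.

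Of the 9 members, 7 had enough counts to be tested and 2, Panx1 and Gjd2, lay below the count filter. None of the 7 passed over all genes by edgeR, against 11 of 10954 genes tested, or 0.1%. An unadjusted p under 0.05 was found for 2 of the 7, Gjb2 and Gjb6, where 9.34% of all genes had one. By DESeq2 1 of the 7 was called, Gjb2, where 0.694% of genes were. As a description, fold changes were positive in 5 of the 7 and negative in 2, with a median of 0.18 on the log2 scale beside -0.0019 over all genes tested. Gjb2 is among the 7 only because its Ptch1cKO libraries, the higher group, met the count filter. The counts among the 7 and their median carry that selection.

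**Figure D2:**
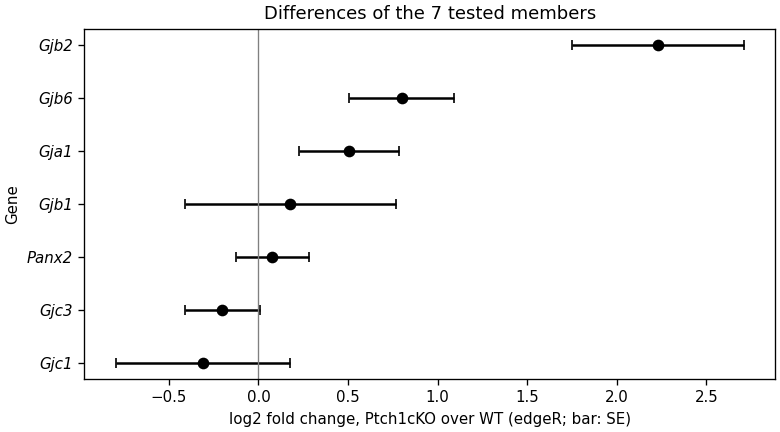
Log2 fold change of Ptch1cKO over WT for the 7 tested members, with points the edgeR estimate and bars 1 SE. Gjb2 stands at 2.23, Gjb6 at 0.80 and Gja1 at 0.50, and the bars of Gjb1, Panx2, Gjc3 and Gjc1 reach or cross 0.

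Gjb2 encodes Cx26, a connexin found at low levels in astrocytes and strongly in the leptomeninges and the inner ear, and among the 7 tested members it had the largest fold change. The WT libraries 1 to 4 held 7, 5, 3 and 2 counts, which are 1.18, 0.786, 0.419 and 0.412 CPM. The Ptch1cKO libraries 1 to 4 held 27, 18, 15 and 17 counts, or 3.83, 3.13, 3.69 and 2.81 CPM. Every Ptch1cKO library was above every WT library, in CPM and in TPM alike. Among genes tested, 5.02% had groups that did not overlap in CPM in either direction and 2.52% had Ptch1cKO higher. The mean went from 0.699 ± 0.364 to 3.37 ± 0.480 CPM (SD, n = 4), a fitted 4.69-fold difference with a log2 fold change of 2.23 (SE 0.48). This missed the threshold over all genes (quasi-likelihood test of edgeR: unadjusted p = 0.000285, BH-adjusted p = 0.113), and the p ranked 27 among 10954.

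The Gjb2 counts are small, and they decide how far the difference can be read. Pooled over 4 libraries there were 17 counts in WT and 77 in Ptch1cKO, a ratio per total count of 4.70 with a 95% exact interval of 2.76 to 8.49 that covers counting error only. No WT library reached 10 counts and all 4 Ptch1cKO libraries did, so Gjb2 met the count filter only through the group in which it was higher. Without the filter the log2 fold change was 2.23 (SE 0.61) and the gene passed, in a fit that called 199 of 20578 genes, or 0.967% (BH-adjusted p = 0.0301 in edgeR). DESeq2, fitted to the same filtered genes as the reported fit, gave 2.26 (SE 0.60) and a pass (BH-adjusted p = 0.0292). This pass thus carries the selection by the filter, as do the rank of the p, the share of genes without overlap and the counts among the tested members given above. Within the 6 libraries of low Xist (under 10 counts), of which 2 are WT, the value was 2.01 (SE 0.64) and did not pass (BH-adjusted p = 0.471 in edgeR). On the log2(TPM + 1) scale, which shrinks differences of low genes, it was 1.37 (SE 0.25; BH-adjusted p = 0.106 in limma).

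**Figure D3:**
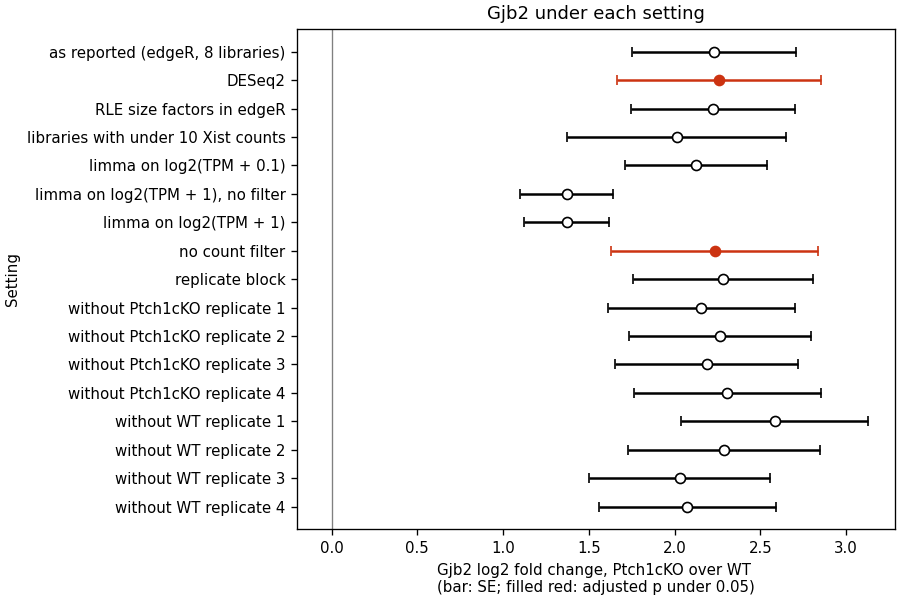
Log2 fold change of Gjb2 under each of 17 settings, with bars of 1 SE. All points lie above 0, between 1.37 and 2.58, and the adjusted p is under 0.05 (filled red) in DESeq2 and without the count filter.

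Because the leptomeninges are rich in Cx26 and Cx30, markers of their fibroblasts are given beside both genes. Their 5 markers summed to 7.62 to 20.7 CPM in WT and 15.1 to 42.1 CPM in Ptch1cKO, which overlap. The pooled counts of the 5 genes did not all move one way. Col1a2 had 232 counts in WT and 508 in Ptch1cKO, or 5.19 to 15.1 and 14.6 to 37.4 CPM. Col1a1 had 64 and 51 counts and Slc6a13 had 31 and 10. These 2 rest much on single WT libraries. WT replicate 2 held 41 of the 64 Col1a1 counts, and WT replicate 3 held 22 of the 31 Slc6a13 counts. The defining fibroblast genes Dcn and Lum were near 0, with at most 3 counts each in any library. Dcn was at 0 in 3 of the 4 Ptch1cKO libraries and in 1 WT library, with only 4 pooled counts in WT and 3 in Ptch1cKO. Over the 8 libraries the summed markers correlated with Gjb6 at r = 0.89 (Spearman 0.93), with Gja1 at r = 0.68 (Spearman 0.69) and with Gjb2 at r = 0.53 (Spearman 0.40). These values describe libraries that share depth and scaling, and Col1a2 holds most of the pooled counts of the sum. Without the 2 libraries farthest from the median of the gene, r was 0.73 for Gjb6 and 0.71 for Gja1. The part of these cells in the Gjb2, Gjb6 and Gja1 differences was not tested.

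Gjb6 encodes Cx30, the connexin that appears in astrocytes as they mature and that is largely restricted to grey matter. WT libraries 1 to 4 had 49.5, 51.7, 107 and 60.1 CPM. Ptch1cKO libraries 1 to 4 had 73.6, 142, 79.9 and 172 CPM. WT replicate 3 stood above the other WT libraries and above 2 Ptch1cKO libraries, and the groups overlapped. The mean was 67.1 ± 27.0 CPM over the WT and 117 ± 48.0 CPM over the Ptch1cKO libraries (SD, n = 4), which gave a fitted log2 fold change of 0.80 (SE 0.29) that did not pass (BH-adjusted p = 0.421 in edgeR). Without WT replicate 3 the value was 1.12 (SE 0.27; BH-adjusted p = 0.210 in edgeR). Without Ptch1cKO replicate 4 it was 0.55 (SE 0.29; BH-adjusted p = 0.751 in edgeR). The fit without the count filter, which called more genes in all, called Gjb6 (log2 fold change 0.81, SE 0.18; BH-adjusted p = 0.00369 in edgeR).

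Gja1 encodes Cx43, the main astrocyte connexin, which also forms hemichannels. WT libraries 1 to 4 had 145, 98.7, 241 and 157 CPM, and Ptch1cKO libraries 1 to 4 had 193, 306, 131 and 279 CPM. Ptch1cKO replicate 3 lay below 3 of the WT libraries and WT replicate 3 above 2 of the Ptch1cKO libraries, so the groups overlapped widely. The mean was 160 ± 59.2 CPM over the WT and 227 ± 80.1 CPM over the Ptch1cKO libraries (SD, n = 4). The log2 fold change was 0.50 (SE 0.28; BH-adjusted p = 0.622 in edgeR). It was 0.77 without WT replicate 3 and 0.33 without WT replicate 2, and neither passed (BH-adjusted p = 0.366 and 0.780 in edgeR). In bulk RNA, a difference in the number of cells of a type and a difference in RNA per cell cannot be told apart.

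**Figure D4:**
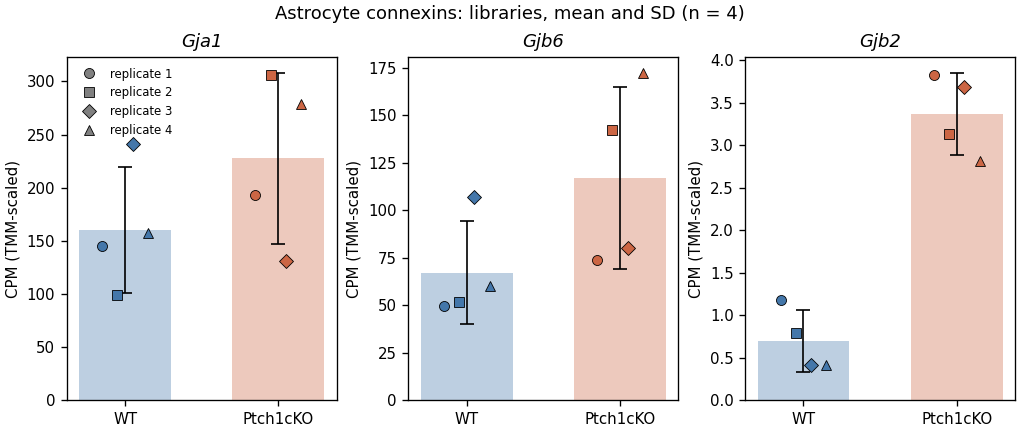
CPM of Gja1, Gjb6 and Gjb2 in the 4 WT and 4 Ptch1cKO libraries, with bars the mean and error bars the SD. Groups overlap for Gja1 and Gjb6, whereas for Gjb2 the lowest Ptch1cKO library, at 2.81 CPM, is above the highest WT library, at 1.18 CPM.

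Gja1 and Gjb6 varied together across libraries. Their log2 CPM correlated at r = 0.88 (Spearman 0.79) over 8 libraries, at r = 0.85 after the mean of each genotype was taken out, and at r = 0.84 without the 2 libraries farthest from the median of Gja1. The libraries with most of both were Ptch1cKO replicates 2 and 4 and WT replicate 3. The ratio of Gjb6 to Gja1 within a library, which does not depend on library scaling, was, in CPM, 0.341, 0.524, 0.445 and 0.384 for WT libraries 1 to 4 and 0.381, 0.463, 0.609 and 0.617 for Ptch1cKO libraries 1 to 4. Ptch1cKO replicates 3 and 4 had the highest ratios and the groups overlapped. Gja1 also moved with the summed astrocyte markers (r = 0.74, Spearman 0.86; r = 0.54 without the same 2 libraries), and Gjb6 less closely (r = 0.44, Spearman 0.52; r = 0.23 without its 2 farthest libraries). Slc1a2 is the largest part of that sum, and the difference between these correlations was not tested. Gjb2 did not follow the other connexins of astrocytes within genotypes, at r = -0.56 with Gja1 and r = -0.70 with Gjb6, from few counts.

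**Figure D5:**
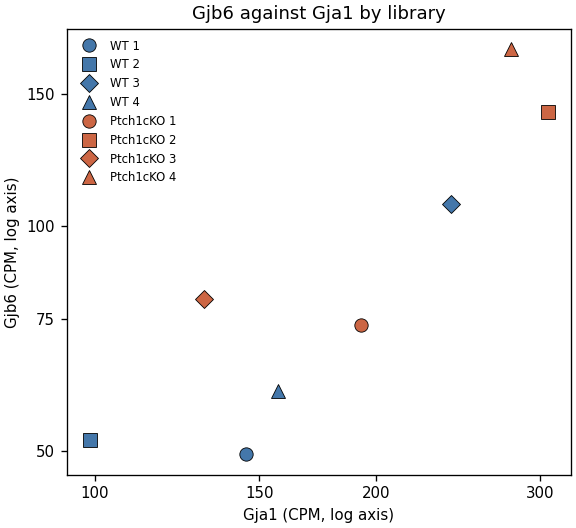
Gjb6 against Gja1 in CPM, both on log axes, with 1 point for each of the 8 libraries. Points rise together from WT replicate 2 (98.7 and 51.7 CPM) to Ptch1cKO replicates 2 and 4 (306 and 142 CPM, 279 and 172 CPM).

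The genes with the pattern most like Gja1 over the 8 libraries, among all genes tested, were Atp1b2, a sodium pump subunit, Slc4a4, the sodium bicarbonate cotransporter, and Hepacam, an astrocyte adhesion protein, each at r = 0.99. Those most like Gjb6 were Chmp2a (r = 0.99), of the membrane-remodelling ESCRT complex, Lrrc8a (r = 0.98), a subunit of the volume-regulated anion channel, and Lgi1 (r = 0.98), a secreted synaptic protein. Among the genes most like Gjb2 were Tmem9 (r = 0.97) and the retinoic acid enzyme Aldh1a1 (r = 0.95). These are the highest of 10954 values, so they describe these libraries. Within genotypes the Gja1 neighbours stayed at r = 0.99, 0.99 and 0.99, and Tmem9 and Aldh1a1 were at 0.74 and 0.78 with Gjb2.

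Among connexins of the oligodendrocyte lineage, Gjc3 (Cx29, chromosome 5, 137953461 to 137963098, minus strand) was the best measured. WT libraries 1 to 4 had 30.6, 38.5, 43.5 and 49.2 CPM and Ptch1cKO libraries 1 to 4 had 24.9, 41.2, 33.7 and 41.0 CPM. All values lay within 1.98-fold of each other and the groups overlapped. Means were 40.4 ± 7.88 and 35.2 ± 7.72 CPM (SD, n = 4), which gave a fitted log2 fold change of -0.20 (SE 0.21; BH-adjusted p = 0.822 in edgeR), and between -0.31 and -0.063 when single libraries were left out. Its log2 CPM went against that of Panx2 over the libraries (r = -0.77, Spearman -0.88). The summed oligodendrocyte markers, given above, also overlapped between groups, as did 7 precursor markers at 493 to 847 CPM in WT and 625 to 836 CPM in Ptch1cKO. Gjc3 correlated with the oligodendrocyte sum at r = 0.30 (Spearman 0.17) and with the precursor sum at r = 0.09 (Spearman -0.02). With the astrocyte sum it was at r = 0.48 (Spearman 0.69). Without the 2 libraries farthest from its median these were -0.23, -0.53 and 0.77. Which cells the Gjc3 reads came from was not tested.

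Gjb1 encodes Cx32, which couples layers of the myelin sheath and joins oligodendrocytes to astrocytes. It lies on the X chromosome at 101376378 to 101385629, plus strand. WT libraries 1 to 4 held 14, 2, 18 and 9 counts and Ptch1cKO libraries 1 to 4 held 26, 5, 5 and 12, an overlapping spread of 11.7-fold in CPM between the lowest and highest library. The log2 fold change was 0.18 (SE 0.59; BH-adjusted p = 0.966 in edgeR) and turned to -0.084 within the 6 libraries of low Xist, to -0.36 without Ptch1cKO replicate 1 and to -0.18 without WT replicate 2. The direction for Gjb1 thus turned with the libraries used.

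Gjc1 encodes Cx45, a connexin of vascular smooth muscle, neurons and developing tissue (chromosome 11, 102799579 to 102819700, minus strand). WT libraries 1 to 4 held 20, 15, 7 and 12 counts and Ptch1cKO libraries 1 to 4 held 20, 10, 6 and 7. These overlapped, and the log2 fold change was -0.31 (SE 0.49; BH-adjusted p = 0.895 in edgeR), between -0.64 and -0.063 when single libraries were left out. Summed mural cell markers were 14.6 to 31.0 CPM in WT and 12.8 to 20.2 CPM in Ptch1cKO. They correlated with Gjc1 at r = -0.11 (Spearman -0.05) over the libraries. Without the 2 libraries farthest from the median of Gjc1, r was 0.45. The part of mural cells in the Gjc1 value was not tested.

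Gjd2, which encodes Cx36, the connexin of electrical synapses between interneurons (chromosome 2, 114009601 to 114013619, minus strand), was nearly absent. WT libraries 1 to 4 held 4, 3, 3 and 0 counts and Ptch1cKO libraries 1 to 4 held 1, 0, 0 and 0. The pooled counts were 10 and 1, a ratio of 0.104 with a 95% exact interval of 0.0024 to 0.730 for counting error only. The groups overlapped at 0, and the fit without the count filter did not call it (unadjusted p = 0.0637 in edgeR, BH-adjusted p = 0.538). An exon of Gjd2 overlaps A530058N18Rik on the opposite strand, and the sources used here do not say if reads were counted by strand. The interneuron enzyme Gad1, among the neuronal markers, overlapped between groups and ranged over 20.6 to 61.7 CPM in WT and 25.1 to 42.6 CPM in Ptch1cKO.

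Pannexins resemble connexins in shape but do not form gap junctions in most tissues. Panx2 (chromosome 15, 89059734 to 89073567, plus strand) had 60.6, 52.6, 46.4 and 35.4 CPM in WT libraries 1 to 4 and 57.1, 37.4, 62.7 and 49.1 CPM in Ptch1cKO libraries 1 to 4. The groups covered nearly the same range. Means were 48.8 ± 10.6 and 51.6 ± 11.0 CPM (SD, n = 4), which gave a fitted log2 fold change of 0.077 (SE 0.20; BH-adjusted p = 0.953 in edgeR). The sign turned on the log2(TPM + 1) scale, to -0.035, and without WT replicate 4 or Ptch1cKO replicate 3, to -0.047 and -0.027. Panx2 went against the summed astrocyte markers, of which Slc1a2 is the largest part, over the libraries (r = -0.83, Spearman -0.86). It went with the summed microglial markers (r = 0.69, Spearman 0.76). Without the 2 libraries farthest from its median these were -0.74 and 0.73, from 6 libraries. The tested genes most like Panx2 were Lsm4, Gps2 and Tgfb1i1, at r = 0.99, 0.99 and 0.98, and those most like Gjc3 were Etaa1, Wdr34 and Ndufs6, at r = 0.98, 0.94 and 0.94.

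Panx1, the widely expressed ATP release channel (chromosome 9, 15002128 to 15045478, minus strand), held 1, 3, 7 and 5 counts in WT libraries 1 to 4 and 10, 4, 3 and 12 in Ptch1cKO libraries 1 to 4. The pooled ratio was 1.88 with a 95% exact interval of 0.989 to 3.71 for counting error only, and the groups overlapped. Without the count filter the log2 fold change was 0.89 (SE 0.79; BH-adjusted p = 0.684 in edgeR). No difference in Panx1 was detected.

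Genes that act with these channels were taken from lists. Of 17 scaffold and regulator genes of gap junctions 15 were tested, 0 passed in either direction, 6 had positive and 9 negative fold changes, 0 had an unadjusted p under 0.05 (edgeR), and the median was -0.067 on the log2 scale. Among the smallest p-values were those of the ubiquitin ligase Nedd4 (-0.26, SE 0.15) and Cdh2, N-cadherin (0.31, SE 0.18), where edgeR gave BH-adjusted p-values of 0.621 and 0.638. Of 19 receptors and enzymes for extracellular ATP and adenosine 10 were tested, 0 passed, 9 were positive and 1 negative, and 2 had an unadjusted p under 0.05, with a median of 0.35. A positive fold change was found for 49.6% of all genes tested. P2ry12 of the ATP and adenosine list is also among the microglial markers given below, so these lists are not separate.

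The 3 genes of that list with the smallest p were P2rx7, Entpd2 and P2rx4. P2rx7, the ATP-gated channel of microglia and other cells, had 2.93 ± 1.19 CPM over the WT and 6.44 ± 1.84 CPM over the Ptch1cKO libraries (SD, n = 4), which gave a fitted log2 fold change of 1.13 (SE 0.38; BH-adjusted p = 0.373 in edgeR). Entpd2, an ectonucleotidase that splits ATP, had 7.82 ± 5.68 and 15.9 ± 2.04 CPM (SD, n = 4; BH-adjusted p = 0.479 in edgeR). P2rx4, another ATP-gated channel, had a value of 0.92 (SE 0.47; BH-adjusted p = 0.578 in edgeR) on the log2 scale. All 3 had overlapping groups. Microglial markers, which share cells with P2rx7 and P2rx4, had positive fold changes in 8 of 8 and summed to 371 to 733 CPM in WT and 406 to 1076 CPM in Ptch1cKO. The median log2 fold change of these markers was 0.58. Their part in these values and in the signs over the whole ATP and adenosine list was not tested.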

How the data were processed

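RNA was read from 8 libraries of sorted tdTomato-positive cortical cells, after low-input amplification and exome capture per the labels' protocols. The submitters' processing notes name bcl2fastq 2.18, STAR 2.5 and mm10. The counter, its annotation and use of strand: not given in the sources used here. Values in the deposited count table are whole reads per gene symbol, not normalized, and the deposited TPM were computed by the authors.

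The test used edgeR 4.0.16 in R 4.3.3: filterByExpr by group (minimum count 10), TMM factors, and the quasi-likelihood F test with robust estimation in all 8 libraries with group as the only term. A gene was called when its p, adjusted by Benjamini-Hochberg over 10954 tested genes, was under 0.05, with no adjustment over the members alone. The SE of a log2 fold change is its size over the square root of F. The test was also run on counts simulated from its own fitted spread with group as the only effect. That run does not check the test against other structure among the libraries. Alternatives used DESeq2 1.42.0 on the same filtered genes, and limma 3.58.1 on log2(TPM + 1) and log2(TPM + 0.1). Correlations use log2 CPM with a prior count of 2 and have no p.

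Gene coordinates are those of GENCODE M21 (GRCm38, the mm10 assembly), in which all 9 symbols matched 1 gene each. RefSeq promoter windows were found for 7 of the 9. The members and lists were chosen with earlier results of these data known. Named genes are the 9 members, the 3 list members with the smallest p, and the 3 genes most like a member. Other genes named were chosen after their values were seen. Some genes covered by the rule were left out of the text. Libraries share name prefixes in the table header only within a genotype, so whatever the prefixes mark and the genotype cannot be told apart. The labels do not say that replicate numbers of the titles pair the libraries. The deposited column names number some Ptch1cKO libraries otherwise than the titles do, and the numbers of the titles were used.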

Additional observations from a re-analysis of the deposited data

How the results depend on the processing

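Gjb2, Gjb6 and Gja1 kept positive and Gjc3 and Gjc1 negative fold changes in all 16 alternatives to the reported fit. Members called were 0 in the reported fit, 1 with DESeq2 and 2 without the count filter, and 0 in the other 14. Genes called in all, 11 as reported, were 76 with DESeq2, 199 without the count filter, 3 in the libraries with under 10 Xist counts, 2 with limma on log2(TPM + 1), 2 on log2(TPM + 0.1) and 1 without a filter on TPM, and leaving out single libraries gave 1 to 19. The cause was not tested, beyond the smaller number of libraries or larger number of genes that some fits hold. With the replicate number as a block 5 genes and 0 members were called. Same-numbered libraries deviated together at r = -0.17 to 0.02, and 0 of 4 correlated best with their own number. A pairing by the numbers of the titles was thus not seen, and so few libraries cannot exclude one. Gjb1 turned to -0.084 in the libraries with under 10 Xist counts and lay between -0.36 and 0.43 without single libraries. Panx2 turned to -0.035 with limma on log2(TPM + 1), with or without a filter, and to -0.036 on log2(TPM + 0.1), and lay between -0.047 and 0.21 without single libraries. The mean log2 ratio of Gjb6 to Gja1, 0.28 higher in Ptch1cKO in CPM and in TPM, lay between 0.18 (without WT replicate 1) and 0.42 (without Ptch1cKO replicate 1) when single libraries were left out; it was positive in each, and no alternative moved it by more than the spread between libraries. Counts under about 10 per library limit Gjb2, Gjb1, Gjc1, Panx1 and Gjd2.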

Other observations

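The other 13 connexins of the list and Panx3 were sparse. All 14 lay below the count filter, with at most 12 counts each in any library, and 8 of them had at most 5 counts in all. Gja5 (Cx40), known from endothelium of arteries, had 16 counts in WT and 0 in Ptch1cKO, and 12 of the 16 were in WT replicate 4. It was singled out after its values were seen, and the fit without the count filter did not call it (unadjusted p = 0.0015 in edgeR, BH-adjusted p = 0.1002).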
